A study of Oryza sativa with 12 samples.

Results

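Homeobox genes encode transcription factors that bind DNA through a homeodomain. The set described here holds the 32 features of a rice seedling RNA-seq study whose gene name starts with HOX, OSH, ROC or WOX followed by a digit, out of 2079 reference genes with a symbol, 37830 reference genes and 112071 features in all. The files name the genes but not their classes, which were taken from general knowledge of the rice families: 10 members are HD-Zip class I, 8 class II, 4 class III, 2 class IV, 3 KNOX and 5 WOX genes.

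HD-Zip proteins, found in plants, join the homeodomain to a leucine zipper through which they dimerise: class I is linked to drought and hormone responses, class II to auxin and shade responses, class III, whose transcripts are targets of the microRNA miR166, to vascular tissue and leaf polarity, and class IV to the outer cell layer. KNOX genes of the kind listed here maintain the shoot meristem, and WOX genes act in stem cell niches, embryos and root initiation.

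RNA came from whole seedlings of rice cultivar ZH11, grown on 1/2 MS medium and 14 days old. The 4 groups, with 3 libraries each, were pkg (labelled PKG-/-) with 10 µM Br-cGMP for 5 h, pkg control without it, wild type with 10 µM Br-cGMP for 5 h, and wild type control. Br-cGMP is an analogue of cyclic GMP, the second messenger that activates PKG, a cGMP-dependent protein kinase. Neither the number of mutant lines nor the altered part of the gene is given in the sources used here. The PKG gene carries no symbol in the files, so its level was not used to check the labels, and pkg means libraries labelled so.

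The deposited values are FPKM, fragments scaled by feature length and by sequencing depth, so they compare genes per length. The files held 6667261 to 9438909 recovered reads per library. Libraries of one group differed in markers of tissue make-up. The summed level of the 16 root markers found, out of 20 sought, ran over 224 to 8121 FPKM in pkg Br-cGMP, 217 to 3863 in pkg control, 3844 to 9073 in wild type Br-cGMP and 275 to 4233 in wild type control, and none of the 16 was listed at 0 throughout. Its lowest values were in replicate 3 of pkg Br-cGMP, pkg control and wild type control. MT4C made up much of this sum, with 6215 FPKM in wild type Br-cGMP 2. Without MT4C and OS02G0662000, a root marker without a symbol, the lowest sums were in the same libraries, at 216, 213 and 269 FPKM. Next came pkg Br-cGMP 1 at 438 FPKM, and the highest was 2317 FPKM in pkg Br-cGMP 2. The 13 dividing-cell markers found, out of 20, summed to 126 to 274 FPKM in pkg Br-cGMP, 112 to 283 in pkg control, 120 to 141 in wild type Br-cGMP and 127 to 431 in wild type control, with CDKB1-1, CYCB2-2, MCM2 and MCM7 listed at 0 in every library. Its highest values were in pkg Br-cGMP 1, pkg control 1 and wild type control 2. Of 20 markers of photosynthetic shoot 4 were found, with CAB1R and CAB2R listed at 0, and the sum ran over 1217 to 2416, 738 to 4848, 612 to 1469 and 703 to 1624 FPKM in the same order of groups. In whole seedlings fewer cells of a type and less RNA per cell cannot be told apart.

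Classes differed in how many members reached the level required for testing. For HD-Zip III, HD-Zip IV and KNOX genes, class cannot be told apart from the annotation described below. Within HD-Zip I the split between tested and untested genes followed the same annotation in full. Of all 37830 reference genes 13781 reached that level. The level required for testing, 1 FPKM in no fewer than 3 libraries, was reached by 5 of 10 HD-Zip I genes, 6 of 8 HD-Zip II genes, none of the 4 HD-Zip III and 2 HD-Zip IV genes, 1 of 3 KNOX genes and 4 of 5 WOX genes, 16 of 32 in all. The 3 members HOX16, HOX18 and WOX10 reached 1 FPKM in some library but not in 3, and HOX7, HOX9 and HOX13 stayed under it. The other 10 members, HOX6, HOX12, HOX20, HOX10, HOX32, HOX33, ROC3, ROC5, OSH6 and OSH71, were listed at 0 in all 12 libraries. HOX5 alone made up 56.3% to 78.3% of the summed FPKM of the set, with a median of 64.9%.

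**Figure D1:**
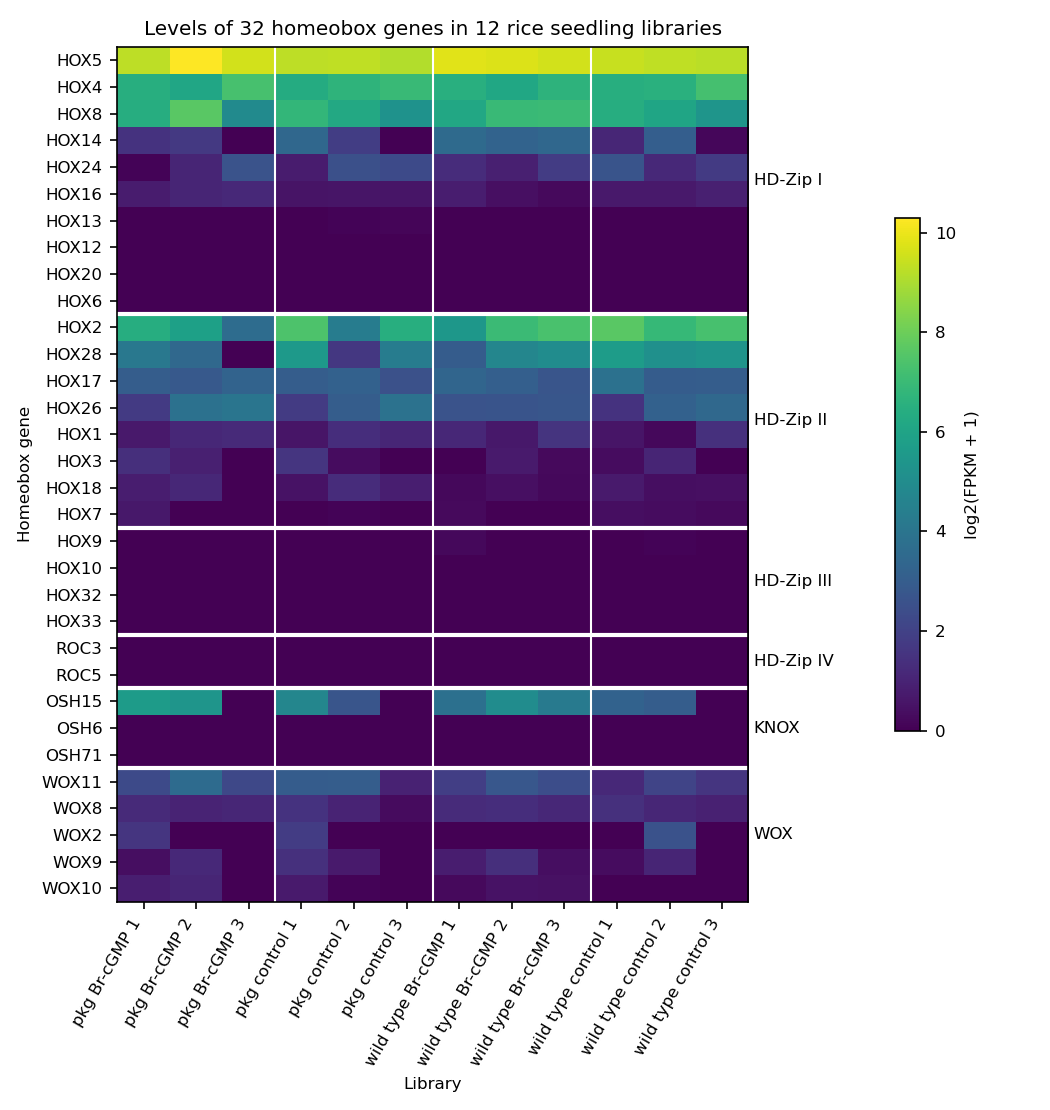
Level of each of the 32 homeobox genes (rows, grouped by class) in each of the 12 libraries (columns, by group), as log2(FPKM + 1) in colour. HOX5 is the brightest row, HD-Zip III and HD-Zip IV rows are dark throughout, and OSH15 is listed at 0 in replicate 3 of pkg Br-cGMP, pkg control and wild type control.

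A 0 in these files need not mean that a gene was silent, and for the homeobox genes it went with the annotation. Besides the reference genes, the 112071 features include 20399 added features. Features of neither kind were not searched for overlap with members. For 16 members an added feature of at most 50000 bases on the same strand covered 80% or more of the gene. Of those 16 members 10 were listed at 0 and 2, HOX1 and WOX8, were tested, and their highest value in any library was 1.89 FPKM. Of the 16 members without such a feature none was listed at 0 and 14 were tested, the exceptions being HOX18 and WOX10. Outside the set the shares split the same way: among the other reference genes with a symbol 63.6% of 714 with such a feature were listed at 0, against 5.70% of 1333 without one, and among all reference genes 66.4% of 14056 against 23.9% of 23774. Of the other reference genes with a symbol 12.6% with such a feature were tested, against 77.5% without one. For homeobox genes these shares were 12.5% and 87.5%.

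All 4 HD-Zip III genes, both HD-Zip IV genes and both KNOX genes listed at 0 lay under such features. So did the HD-Zip I genes HOX6, HOX12 and HOX20, listed at 0, and HOX13 and HOX16, the other untested genes of that class. The tested HD-Zip I genes had no such feature. Whether the genes under such features were off or low, or their reads went unassigned, was not tested. The added features themselves held few reads: 10 of the 16 were listed at 0 as well, and 2 reached 1 FPKM. The feature over HOX10, an HD-Zip III gene at 549933 to 557886 on chromosome 3, had 2.31, 0.542 and 0.728 FPKM in pkg Br-cGMP, 1.65, 0.591 and 0.935 in pkg control, 1.02, 0.992 and 1.50 in wild type Br-cGMP, and 2.22, 1.67 and 1.72 in wild type control. The feature over HOX7, an HD-Zip II gene at 21487610 to 21489894 on chromosome 2, had 1.20 to 3.90 FPKM, while HOX7 itself had at most 0.595 FPKM. That feature extends to 21501719, well past HOX7, so its reads need not lie within HOX7. The overlap rule was chosen after the values were seen, how the program handled reads shared by several features was not tested, and the genome build of the coordinates is not given in the sources used here.

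**Figure D2:**
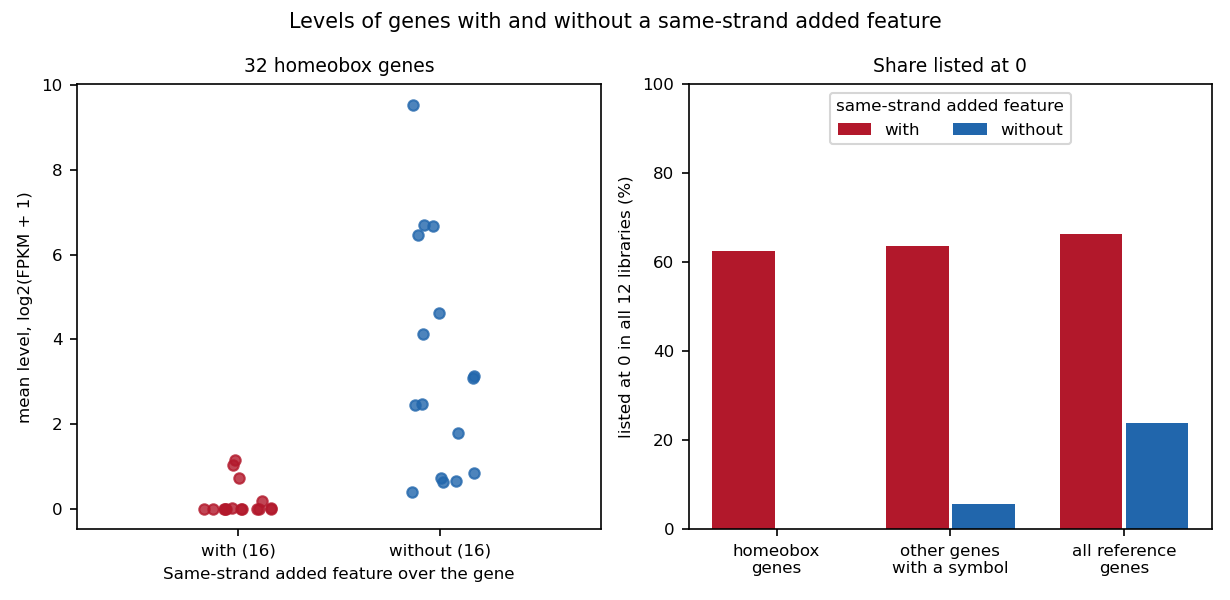
Left, mean level over 12 libraries of each homeobox gene, as log2(FPKM + 1), for the 16 genes with and the 16 without a same-strand added feature over 80% or more of the gene (points spread sideways at random). Right, percent of genes listed at 0 in all libraries, for homeobox genes, other reference genes with a symbol and all reference genes; the bars with such a feature stand at 62.5%, 63.6% and 66.4%.

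The first comparison asked what Br-cGMP changes in wild type. The abundant HD-Zip I gene HOX5, its low relative HOX14 and the meristem gene OSH15 were higher in each wild type Br-cGMP library than in any wild type control, with differences of 0.41 ± 0.23 (SE), 1.97 ± 0.90 and 2.27 ± 1.59 on the log2(FPKM + 1) scale, with n = 3 libraries a group. The HD-Zip II gene HOX28 was lower in each, with -1.15 ± 1.15. No homeobox gene passed the test of any comparison, so these are values and not calls. By limma, none of the 16 tested homeobox genes passed an adjusted p of 0.05, where 0.0% of 25238 features passed, and none had an unadjusted p under 0.05, where 5.33% of features did. The members split evenly, with 8 above and 8 below control and a median difference of 0.03 on the log2(FPKM + 1) scale, against -0.01 over all features. Values of the Br-cGMP libraries lay above all control values for OSH15, HOX14 and HOX5, 3 of 16, where 8.88% of features did so. They lay below all control values for HOX28, where 4.86% of features did so.

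In pkg, HOX5 differed by 0.49 ± 0.23 and OSH15 by 1.18 ± 1.59 with Br-cGMP, and HOX14 by -0.69 ± 0.90. The same test in pkg gave no call among the members, with 0.0% of features called, and no unadjusted p under 0.05, against 2.71% of features. There 9 members were above and 7 below pkg control, with a median of 0.06 against -0.01, and no member's groups were free of overlap, where 2.71% of features were higher and 2.41% lower without overlap. The smallest adjusted p was 0.882 in wild type and 1 in pkg.

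Set against wild type, pkg seedlings had lower mean levels of the neighbouring HD-Zip II genes HOX2 and HOX28 in both treatments, with differences of -1.21 to -1.71, and a lower level of HOX14 under Br-cGMP, with -2.36 ± 0.90. Single libraries carry much of the first 2 genes' differences: without pkg control 2 those in control seedlings were -0.35 for HOX2 and -0.48 for HOX28, and without pkg Br-cGMP 3 those under Br-cGMP were -0.46 and -0.44. Between the genotypes, pkg against wild type gave 0 calls among the members by limma in control seedlings, where 0.341% of features were called, and 0 under Br-cGMP, where 0.341% were called. At an unadjusted p under 0.05 stood 0 members without Br-cGMP, against 5.22% of features, and 1 member, HOX14, under it, against 9.47%. Without Br-cGMP 8 members were above and 8 below wild type, with a median difference of 0.08 against -0.01 over all features, and no member was free of overlap, where 5.27% of features were higher and 5.44% lower. Under Br-cGMP 5 were above and 11 below, with a median of -0.08 against -0.02, and 1 member, HOX14, lay below all wild type values, where 6.65% of features did so and 6.65% lay above.

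The difference between the responses of pkg and wild type was also tested and gave 0 calls, where 0.00396% of features were called, and no unadjusted p under 0.05, against 2.07%. Averaged over both genotypes, Br-cGMP against control gave 0 calls (0.0% of features) and 1 unadjusted p under 0.05, that of HOX5, against 5.76%. Averaged over both treatments, pkg against wild type gave 0 calls (0.769% of features) and none at an unadjusted p under 0.05 (12.6%). Neither averaged comparison left a member free of overlap, where 0.19% of features were higher and 0.0515% lower with Br-cGMP, and 0.955% higher and 0.792% lower in pkg. With limma-voom, fitted to the recovered reads, 0 members were called in each of the 7 comparisons. The 7 comparisons share libraries, and each p-value reflects no more than the spread among the libraries at hand.

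**Figure D3:**
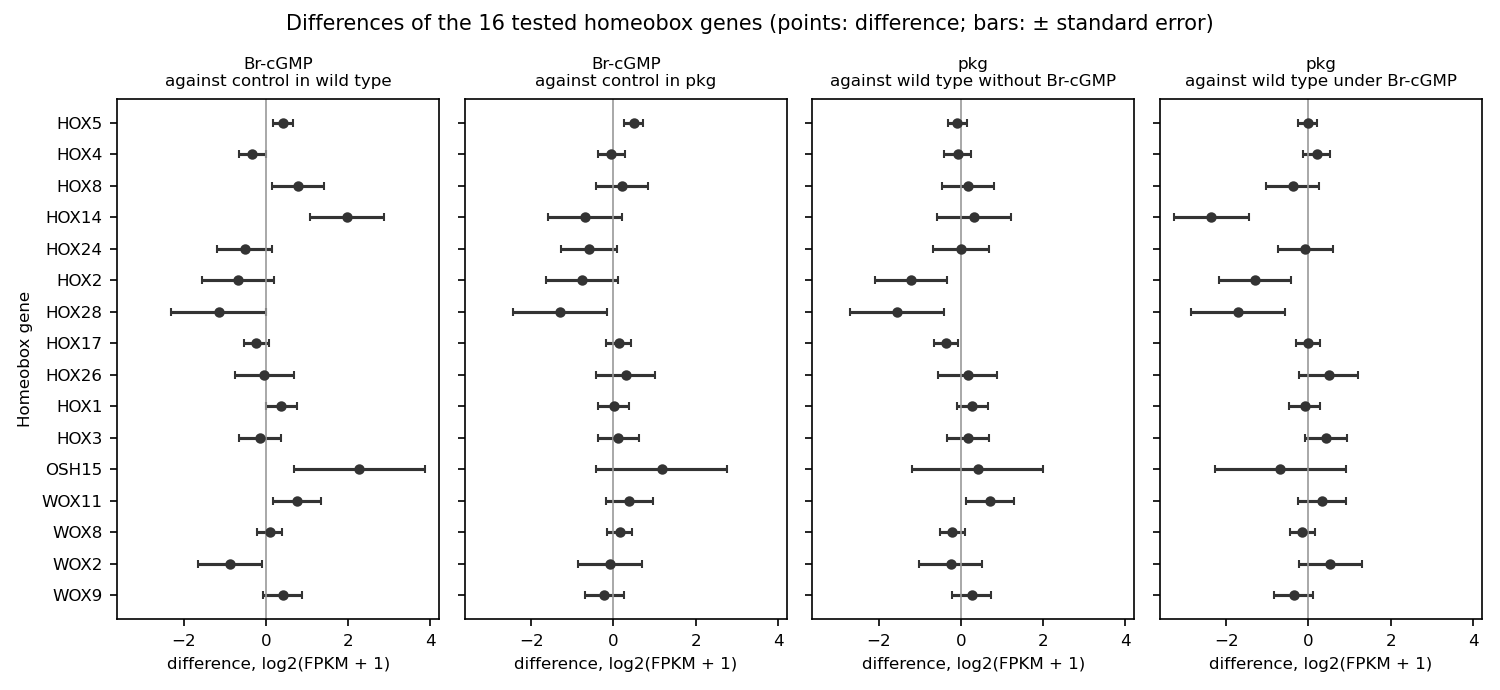
Difference of each of the 16 tested homeobox genes (rows) in 4 comparisons (panels) on the log2(FPKM + 1) scale; points are differences and bars ± 1 standard error. HOX14 stands at 1.97 for Br-cGMP in wild type and at -2.36 for pkg against wild type under Br-cGMP, and the bars of OSH15, HOX28 and HOX2 are wide.

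Among the HD-Zip I genes HOX5 was the most abundant member of the whole set, and ranked 94 of 13781 tested reference genes by mean FPKM. HOX5 (OS08G0416000) had 618, 1254 and 766 FPKM in pkg Br-cGMP, 608, 633 and 557 in pkg control, 922, 869.9 and 764 in wild type Br-cGMP, and 691, 631 and 594 in wild type control. Every wild type Br-cGMP library was above every wild type control library, while in pkg the lowest Br-cGMP library lay within the control range. Set side by side by replicate number, which the labels do not give as a pairing, pkg libraries with and without Br-cGMP had 618 against 608, 1254 against 633 and 766 against 557 FPKM. How many features were higher with Br-cGMP in all 3 was not counted. The differences were 0.49 ± 0.23 (SE) in pkg and 0.41 ± 0.23 in wild type on the log2 scale, with limma adjusted p = 1 and adjusted p = 0.882. Without pkg Br-cGMP 2, the library at 1254 FPKM, the difference in pkg was 0.20 ± 0.18. Averaged over both genotypes, Br-cGMP libraries had a lowest, median and highest value of 618, 818 and 1254 FPKM, against 557, 619.5 and 691 FPKM in controls. That difference was 0.45 ± 0.17, with unadjusted p = 0.0205 and adjusted p = 0.816 by limma. Only pkg Br-cGMP 1 (618 FPKM) and 3 control libraries (633, 691 and 631) kept these 2 sets of 6 from separating fully.

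HOX4, which is linked to gibberellin responses and plant height, had 86.1, 68.0 and 157 FPKM in pkg Br-cGMP, 78.8, 103 and 126 in pkg control, 88.3, 69.2 and 98.6 in wild type Br-cGMP, and 87.8, 91.0 and 151 in wild type control. HOX8 had 83.4, 201 and 29.1 FPKM in pkg Br-cGMP, 113, 73.7 and 37.4 in pkg control, 70.6, 124 and 127 in wild type Br-cGMP, and 83.7, 64.5 and 40.3 in wild type control. The 4 groups overlapped for both genes, and the 3 highest values of HOX4 and the 3 lowest of HOX8 sat in the replicate 3 libraries low in root markers. Wild type means of HOX8 were 107 ± 31.8 FPKM with Br-cGMP and 62.9 ± 21.7 FPKM in control (SD, n = 3 each). In the 4 pairwise comparisons differences of HOX4 ran from -0.33 ± 0.33 (Br-cGMP in wild type) to 0.20 ± 0.33 (pkg against wild type under Br-cGMP). Those of HOX8 ran from -0.39 ± 0.64 (pkg against wild type under Br-cGMP) to 0.77 ± 0.64 (Br-cGMP in wild type). An added feature and a reference gene on the opposite strand overlap HOX4 over 54.9% and 47.9% of its span, both listed at 0. Opposite-strand reference genes covered more of HOX3 (87.9%), HOX16 (96.6%), HOX9 (83.0%), HOX10 (83.5%), HOX32 (96.3%) and HOX33 (91.7%). Whether counting used strand is not stated, and the part of these overlaps in the levels was not tested.

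HOX14, an HD-Zip I gene known from panicle development, was the member with the sharpest contrast between groups. It had 1.84, 2.23 and 0 FPKM in pkg Br-cGMP, 9.70, 2.62 and 0 in pkg control, 10.9, 8.67 and 9.73 in wild type Br-cGMP, and 1.13, 7.53 and 0.120 in wild type control. The wild type Br-cGMP libraries were alike and high, and the other 3 groups each held a library at or near 0 in replicate 3. These values rest on 78 to 92 reads per library in wild type Br-cGMP and 0 to 103 in the others, and 3 reads correspond to 0.334 FPKM in pkg Br-cGMP 3 and 0.410 FPKM in pkg control 3.

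The difference of HOX14 between pkg and wild type under Br-cGMP was -2.36 ± 0.90 (limma, unadjusted p = 0.0252, adjusted p = 0.46), with all 3 pkg libraries below all 3 of wild type. Its response to Br-cGMP was -0.69 ± 0.90 in pkg and 1.97 ± 0.90 in wild type (limma adjusted p = 1 and adjusted p = 0.882), and the difference between the responses was -2.67 ± 1.27 (limma unadjusted p = 0.062, adjusted p = 1.0). Without the 3 libraries low in root markers, the difference under Br-cGMP was -1.83 ± 0.64 (limma adjusted p = 0.776) and the response in wild type 1.33 ± 0.64 (limma adjusted p = 0.951). Without the 3 libraries highest in dividing-cell markers, a choice made after seeing the data, the difference under Br-cGMP was -2.58 ± 0.68 (limma adjusted p = 0.145). Wild type Br-cGMP is the group without a library low in root markers, and the part of tissue make-up in this result was not tested.

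HOX24, a drought-responsive HD-Zip I gene, had 0.0867, 1.12 and 5.19 FPKM in pkg Br-cGMP, 0.720, 4.76 and 3.94 in pkg control, 1.51, 0.849 and 2.60 in wild type Br-cGMP, and 5.37, 1.30 and 2.35 in wild type control. Values within each group spanned several-fold and the groups overlapped in every comparison. Its difference with Br-cGMP in pkg was -0.59 ± 0.68 (limma adjusted p = 1), and leaving out 1 library moved it between -1.27 (without pkg Br-cGMP 3) and -0.015 (without pkg Br-cGMP 1). HOX16, under the testing level, had 0.200 to 1.28 FPKM, and HOX13 at most 0.0981 FPKM.

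**Figure D4:**
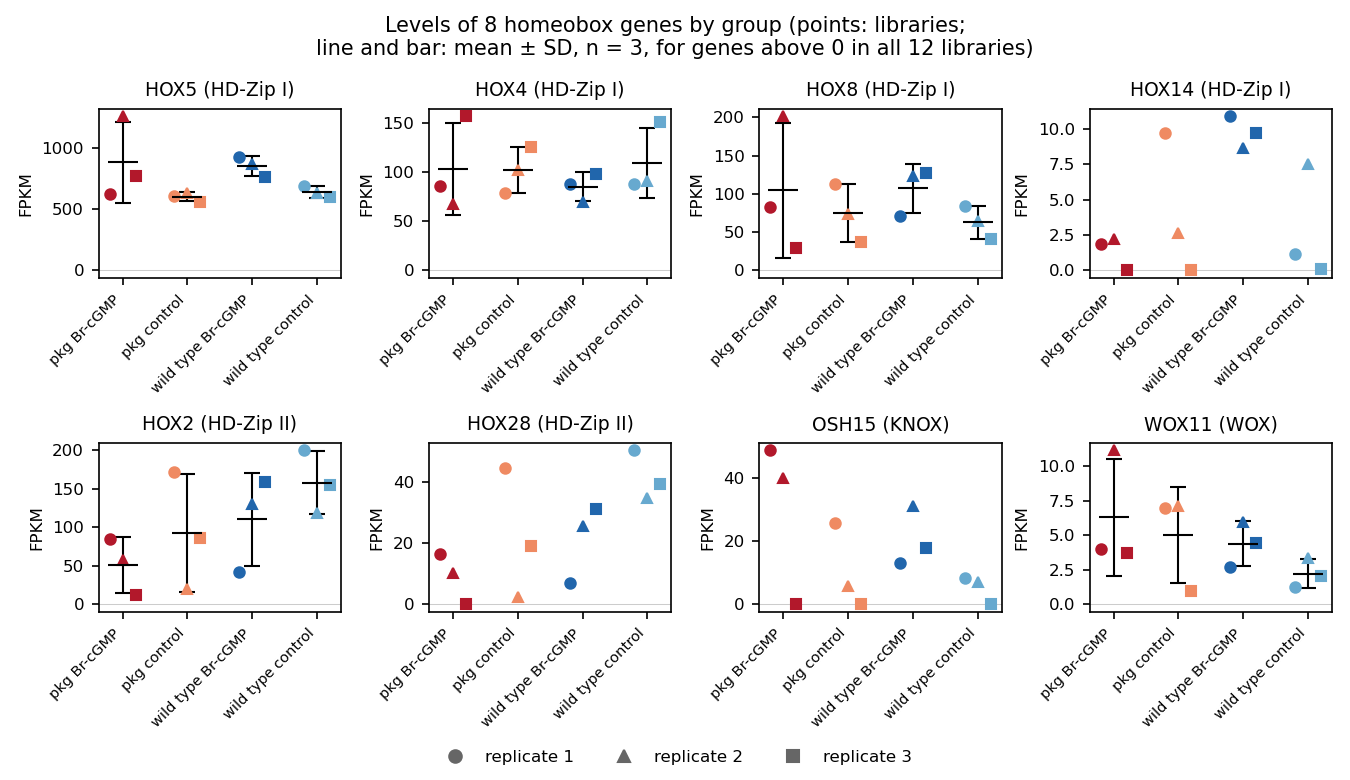
FPKM of 8 homeobox genes in each library (points, shaped by replicate number) in pkg Br-cGMP, pkg control, wild type Br-cGMP and wild type control; lines and bars are mean ± SD of 3 libraries, drawn only for genes above 0 in all 12 libraries. HOX14 lies between 8.67 and 10.9 FPKM in wild type Br-cGMP and at 2.23 FPKM or less in pkg Br-cGMP, and OSH15 is listed at 0 in replicate 3 of the 3 other groups.

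The leading HD-Zip II genes were HOX2 and HOX28, the second of which is known from tiller angle control. HOX2 had 83.9, 56.8 and 11.5 FPKM in pkg Br-cGMP, 172, 19.1 and 85.6 in pkg control, 42.1, 129 and 159 in wild type Br-cGMP, and 199.8, 119 and 155 in wild type control. HOX28 had 16.4, 10.3 and 0 FPKM in pkg Br-cGMP, 44.7, 2.19 and 19.0 in pkg control, 7.01, 25.6 and 31.3 in wild type Br-cGMP, and 50.5, 34.8 and 39.5 in wild type control. Both genes were lowest in pkg Br-cGMP 3, pkg control 2 and wild type Br-cGMP 1, 3 libraries of 3 groups, and both were high in all 3 wild type control libraries. In pkg Br-cGMP 3, where HOX28 was listed at 0, 3 reads would give 0.300 FPKM.

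These 2 genes are neighbours. HOX28 lies at 2123412 to 2124781 and HOX2 at 2137590 to 2139091 on the plus strand of chromosome 6, 12808 bases apart, and none of the 8 features listed between them was above 0 in any library. HOX2 was 3.41 to 8.71 times HOX28 in FPKM over the 11 libraries where HOX28 was above 0, while each gene's own level varied far more. They are separate loci with separate values, and a library low in one was low in the other.

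Averaged over both treatments, HOX2 had a lowest, median and highest value of 11.5, 70.4 and 172 FPKM in the 6 pkg libraries, against 42.1, 142 and 199.8 FPKM in the 6 wild type libraries. HOX28 had 0, 13.4 and 44.7 FPKM in pkg, against 7.01, 33.1 and 50.5 FPKM in wild type. The medians were lower in pkg for both genes and the ranges overlapped. The differences were -1.25 ± 0.62 for HOX2 and -1.63 ± 0.81 for HOX28, with limma adjusted p = 0.445 and adjusted p = 0.447. By treatment they were -1.29 ± 0.88 under Br-cGMP and -1.21 ± 0.88 without it for HOX2, and -1.71 ± 1.15 and -1.56 ± 1.15 for HOX28.

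Leaving out pkg control 2 gave an averaged difference of -0.82 ± 0.54 for HOX2, and leaving out pkg Br-cGMP 3 gave -0.999 ± 0.655 for HOX28. Without the 3 libraries low in root markers the averaged differences were -0.93 ± 0.68 for HOX2 and -1.14 ± 0.80 for HOX28, and those under Br-cGMP -0.46 ± 0.92 and -0.44 ± 1.08, none past the threshold by limma. Without the 3 libraries highest in dividing-cell markers the averaged differences were -1.96 ± 0.67 and -2.51 ± 0.89 (limma adjusted p = 0.174 and adjusted p = 0.187). For Br-cGMP in pkg, HOX28 differed by -1.30 ± 1.15 with all libraries and by 0.21 ± 1.18 without those low in root markers, and it was -0.03 ± 0.98 without pkg Br-cGMP 3 alone. In wild type, where the Br-cGMP libraries all lay below the controls, its difference was -1.15 ± 1.15 (limma adjusted p = 0.916).

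HOX17 varied least among the HD-Zip II genes. It had 7.20, 6.28 and 8.66 FPKM in pkg Br-cGMP, 7.24, 8.17 and 4.89 in pkg control, 9.32, 7.72 and 5.52 in wild type Br-cGMP, and 13.5, 6.96 and 7.22 in wild type control. Wild type control 1 stood apart, and pkg against wild type without Br-cGMP gave -0.36 ± 0.30 (limma adjusted p = 0.947), or -0.08 ± 0.29 without that library. HOX26 had 2.32, 13.2 and 15.0 FPKM in pkg Br-cGMP, 2.42, 7.11 and 13.6 in pkg control, 5.19, 5.38 and 5.80 in wild type Br-cGMP, and 1.86, 8.16 and 10.0 in wild type control. It was lowest in replicate 1 of each group, and its largest difference was 0.50 ± 0.72 for pkg against wild type under Br-cGMP (limma adjusted p = 0.868).

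The remaining HD-Zip II genes were near the testing level. HOX1, also known from tiller angle, had 0.176 to 1.89 FPKM and HOX3 0 to 2.03 FPKM. HOX18 had 0 to 1.46 FPKM and was not tested. In the HD-Zip III class HOX9 was the one member above 0, at 0.156 FPKM in wild type Br-cGMP 1 and 0.0669 FPKM in wild type control 2.

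The KNOX gene OSH15, known for its part in internode elongation, was listed at 0 in 3 libraries and was well above 0 in the other 9. It had 48.9, 40.1 and 0 FPKM in pkg Br-cGMP, 25.6, 5.65 and 0 in pkg control, 13.0, 31.2 and 17.9 in wild type Br-cGMP, and 8.31, 7.15 and 0 in wild type control. The 3 values of 0 were in the libraries low in root markers, where 3 reads correspond to 0.258 to 0.316 FPKM and other libraries had 81 to 620 reads. Among the other libraries, a set that leaves out every value of 0, Br-cGMP values were above the controls of the same genotype. How many features did so in that set was not counted. With all libraries the pkg groups overlapped.

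With all libraries, OSH15 differed with Br-cGMP by 1.18 ± 1.59 in pkg, by 2.27 ± 1.59 in wild type and by 1.73 ± 1.12 averaged over both genotypes, with limma adjusted p = 1, adjusted p = 0.889 and adjusted p = 0.881. Averaged, its lowest, median and highest values were 0, 24.6 and 48.9 FPKM with Br-cGMP, against 0, 6.40 and 25.6 FPKM in controls. Without wild type control 3 alone the difference in wild type was 1.23 ± 1.71, and without pkg control 3 alone the averaged one was 1.10 ± 1.10. Without all 3 libraries at 0 the differences were 1.23 ± 0.59 in wild type and 1.50 ± 0.44 averaged, with limma adjusted p = 0.951 and adjusted p = 0.988 over all features.

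Among the WOX genes WOX11, which promotes the emergence of crown roots, was the highest. It had 3.96, 11.2 and 3.73 FPKM in pkg Br-cGMP, 6.98, 7.09 and 0.964 in pkg control, 2.71, 5.98 and 4.44 in wild type Br-cGMP, and 1.25, 3.32 and 2.02 in wild type control. Group means were 6.28 ± 4.22, 5.01 ± 3.51, 4.38 ± 1.64 and 2.20 ± 1.05 FPKM in that order (SD, n = 3 each). All groups overlapped their neighbours in this order, and no difference passed, the largest being 0.75 ± 0.58 for Br-cGMP in wild type (limma adjusted p = 0.889).

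WOX8 had 1.31, 1.03 and 1.13 FPKM in pkg Br-cGMP, 1.86, 1.06 and 0.219 in pkg control, 1.39, 1.55 and 1.23 in wild type Br-cGMP, and 1.72, 1.14 and 0.901 in wild type control. Apart from pkg control 3 its values were within a narrow band. WOX9, also listed as QHB and known from the quiescent centre of the root, had 0.294, 1.26 and 0 FPKM in pkg Br-cGMP, 1.72, 0.693 and 0 in pkg control, 0.793, 1.60 and 0.315 in wild type Br-cGMP, and 0.272, 1.07 and 0 in wild type control. Its 3 values of 0 were in the libraries low in root markers, and the difference between the responses was -0.62 ± 0.67 (limma adjusted p = 1.0), between -0.99 and -0.27 with 1 library left out.

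WOX2 was above 0 in 3 libraries alone: 2.01 FPKM in pkg Br-cGMP 1, 2.60 FPKM in pkg control 1 and 5.08 FPKM in wild type control 2. These are the 3 libraries highest in dividing-cell markers, and in the 9 others 3 reads would give 0.356 to 0.538 FPKM. WOX10, known from root diameter, had 0 to 1.10 FPKM, was listed at 0 in all wild type control libraries and was not tested.

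Replicate libraries of a group thus differed in a shared way. The 3 libraries low in root markers held the 3 highest values of HOX4, 1 of 16 members, where 1.56% of features had their 3 highest values there. They held the 3 lowest values of HOX8, HOX14, OSH15 and WOX9, 4 of 16 members, where 4.74% of features did so. The root marker LSI2, a silicon transporter, had 0.181 FPKM in pkg Br-cGMP 3, 0 in pkg control 3 and 0.196 in wild type control 3, against 41.7 to 452 FPKM elsewhere. Not every root marker was low there. TIP2-2 had 119, 172 and 231 FPKM in these libraries, against 81.0 to 319 FPKM elsewhere. IRT2 was highest in pkg Br-cGMP 3, at 3.28 FPKM, and IRT1 in pkg control 3, at 2.64 FPKM.

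HOX3 and WOX2 each reached 1 FPKM in exactly 3 libraries, and these were the 3 highest in dividing-cell markers. Both passed the testing level through those libraries alone, so that they are highest there was fixed by the filter and is given as a description. Those libraries held the 3 lowest values of no member, where 1.18% of features had theirs there. The cell cycle kinase gene CDKB2-1 had 89.9, 98.7 and 158 FPKM there, against 1.90 to 33.3 FPKM elsewhere. Not every dividing-cell marker stood apart in this way. H2B1 had 104, 104 and 121 FPKM there, against 79.5 to 115 FPKM elsewhere, and RPA2B was highest in pkg Br-cGMP 3, at 2.57 FPKM. HOX3 was singled out after its values were seen. These patterns cross the 4 groups, and the part of tissue make-up in them was not tested.

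**Figure D5:**
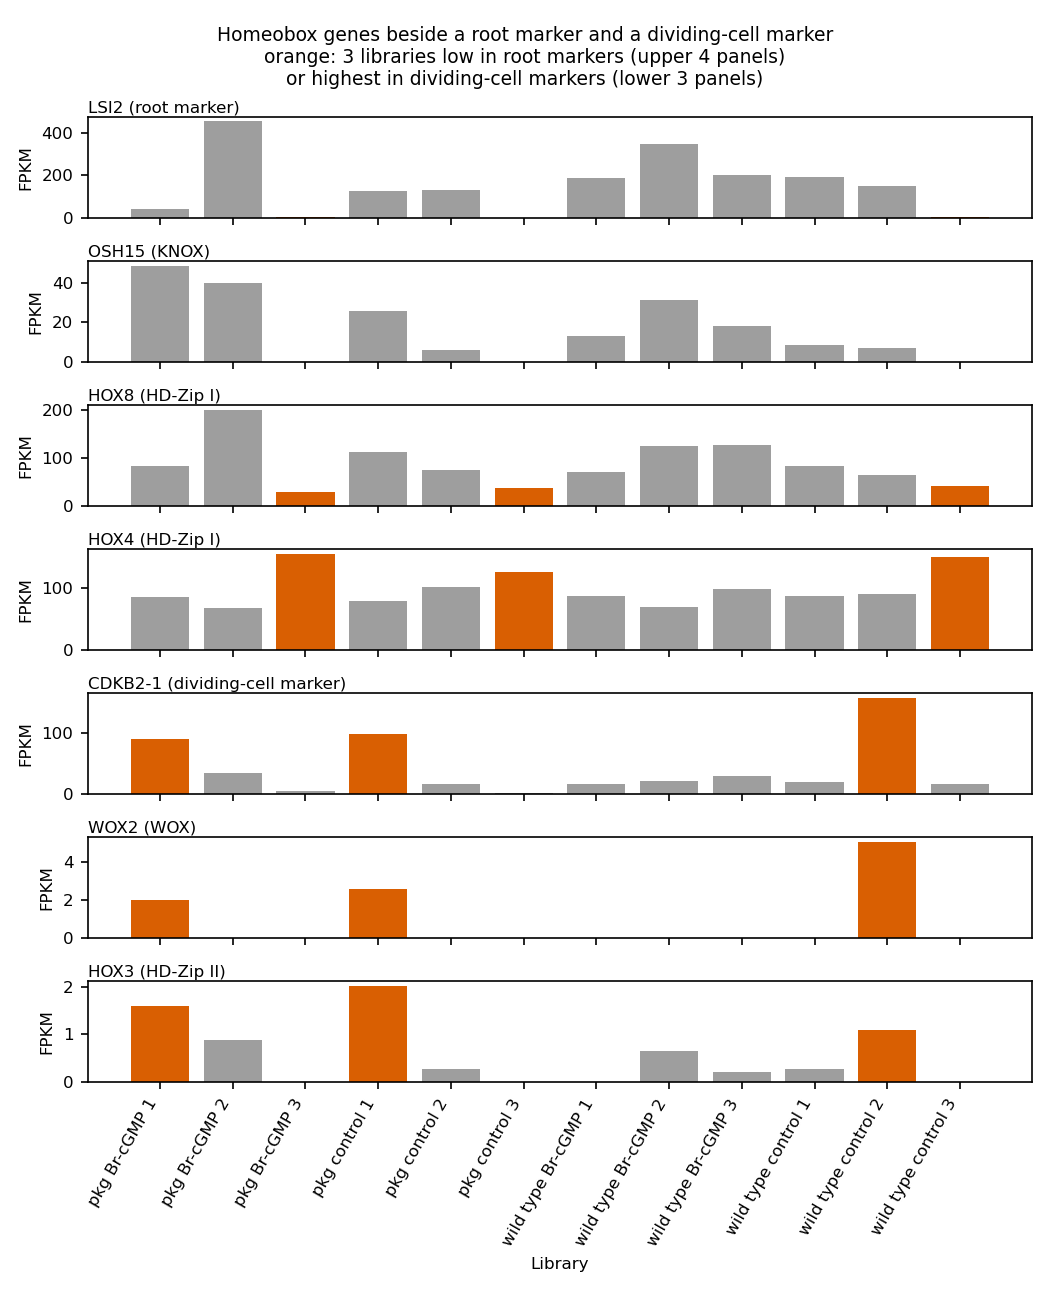
FPKM in the 12 libraries of the root marker LSI2, OSH15, HOX8 and HOX4 (upper 4 panels, orange for the 3 libraries low in root markers) and of the dividing-cell marker CDKB2-1, WOX2 and HOX3 (lower 3 panels, orange for the 3 libraries highest in those markers). Orange bars of LSI2 and OSH15 are at or near 0, those of HOX8 are the lowest and those of HOX4 the highest of their panels, and WOX2 is above 0 in its orange libraries alone, through which it and HOX3 passed the testing level.

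Genes connected with homeobox factors gave no call either. Of 38 such genes sought by symbol 13 were found, 4 of them listed at 0 and 5 tested, and 0 passed the limma threshold in any of the 7 comparisons. Of the 5, 0 were above and 5 below wild type in pkg without Br-cGMP, and 1 was above and 4 below under it. With Br-cGMP 4 were above and 1 below control in pkg, against 3 and 2 in wild type. Over all features 49.0%, 48.0%, 48.3% and 48.6% were above in the same order. The direction of these 5 genes as a set was not tested. The KNOX class II gene HOS66 ran from 9.44 FPKM in pkg Br-cGMP 3 to 228 FPKM in wild type Br-cGMP 1, with -1.45 ± 0.60 for pkg against wild type averaged over both treatments (limma adjusted p = 0.355). CYP714D1, a gibberellin-inactivating enzyme known to act downstream of HOX12, had 2.48, 3.12 and 3.59 FPKM in the 3 libraries low in root markers and 16.2 to 99.1 FPKM elsewhere, while HOX12 itself was listed at 0.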

How the data were processed

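RNA of 12 whole-seedling libraries, 3 in each of 4 groups taken from the sample titles, was sequenced. CASAVA 1.8 and HISAT2 were used, per the submitters' processing notes; the genome build, the annotation, the counting program and its use of strand are not stated there. No unit is named for the deposited values. They were read as FPKM because, in each library, the authors' value times feature length always came to a whole number of equal steps (100% of values, tolerance 0.01), which also gave back the reads (6667261 to 9438909 per library) and showed that the FPKM had already been scaled between libraries. No reference sequence was used, and names come from the files; 21 of 32 members also matched a RefSeq table of another assembly by name.

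Differences were tested with limma 3.58.1 (R 4.3.3) after log2(FPKM + 1) transformation, with a mean for each group over all 12 libraries, trended and robust moderation, the 25238 features that reached 1 FPKM in no fewer than 3 libraries, and Benjamini-Hochberg adjustment over all of them at 0.05. The pseudocount makes differences of low genes too small. Tables and plots used Python 3.11.15, pandas 2.3.3 and matplotlib 3.10.9. The procedure was tested on simulated data. A floor of 3 reads per library covers counting error only.

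Named with every library's value were up to 4 tested members per class by mean level and the 3 members with the smallest p in each of 7 comparisons; members that reached 1 FPKM without being tested were given by range. The members, the marker and related lists and the tests were chosen with earlier results of these data known. Replicates differed by a chi-square per degree of freedom of 18.4 to 65.9, so none was a copy. Deviations of same-numbered pkg Br-cGMP and pkg control libraries had correlations of 0.305 to 0.356, each of the 3 over 0.1, which no other comparison showed. Single values between other groups were larger, at 0.407 for pkg control 3 with wild type control 3 and 0.402 for pkg control 1 with wild type control 2. These correlations therefore do not establish a pairing. The labels give only a number, and the main fit used no pairs. The alternatives were the pseudocount, the filter, scaling, moderation, the groups in the fit, a replicate block, reference genes alone, limma-voom and leaving out libraries.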

Additional observations from a re-analysis of the deposited data

How the results depend on the processing

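No homeobox gene passed the threshold in the 148 fits that recounted calls under another filter, pseudocount, scaling, moderation, set of groups, replicate block, limma-voom or with libraries left out. Of 441 values of the 21 named differences, 440 kept their sign. That sign says little where 1 library carries the value: HOX28 with Br-cGMP in pkg was -0.03 without pkg Br-cGMP 3, HOX24 in pkg was -0.015 without pkg Br-cGMP 1, and HOX17 in pkg against wild type without Br-cGMP was -0.08 without wild type control 1. The exception in sign was HOX28 with Br-cGMP in pkg, 0.21 without the libraries low in root markers, where the single 0 of pkg Br-cGMP 3 is left out. The smallest adjusted p of any was 0.145 (limma), for HOX14 in pkg against wild type under Br-cGMP without the libraries highest in dividing-cell markers, an alternative added after seeing the data; over all alternatives the difference ran from -3.93 to -1.23 and its adjusted p from 0.145 to 0.919. HOX5 averaged over both genotypes ran from 0.31 to 0.56, with adjusted p from 0.268 to 0.999. A replicate block, the pairing of equal numbers, left all 7 counts of members at 0 and called 0, 0, 81, 80, 1, 1 and 208 features, in the order Br-cGMP in wild type, Br-cGMP in pkg, pkg without Br-cGMP, pkg under Br-cGMP, interaction, Br-cGMP averaged and pkg averaged, against 0, 0, 86, 86, 1, 0 and 194 without it. Background counts moved more than those of the members: with reference genes alone they were 12, 8 and 57 for pkg without Br-cGMP, pkg under it and pkg averaged, and without pkg Br-cGMP 1 they were 200 and 578 for the last 2 of these; the cause was not tested. Of 64 member levels compared under other scaling, 0 were marked as moved, which does not mean that values were unchanged. For HOX5 the difference with Br-cGMP in wild type was 0.41, and 0.38 with the same sum over reference genes. Depth limits the low members most: HOX14, HOX24, HOX17, HOX26, HOX1, HOX3 and the WOX genes rest on few reads. HOX28 had 0 reads in pkg Br-cGMP 3 and 27 in pkg control 2. Members not tested can be given by level alone.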
